A study of Mus musculus with 24 samples.

Results

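Messenger RNA of the mouse nucleus accumbens was compared between nerve-injured mice that carried a Mef2c vector (SNI Mef2c) and sham-operated mice that carried the control vector (Sham Gfp). The samples were taken by the group names in the count table, which gave 6 libraries of SNI Mef2c and 6 of Sham Gfp, 12 of the 24 libraries of the series. Tibial SNI, spared nerve injury on the left sciatic nerve, is a model of lasting neuropathic pain, and the sham operation spared the nerve. The mice were C57BL/6J or DBA/2J aged 8 to 9 weeks, and the labels do not say which strain gave which library. The SNI Mef2c mice had received AAV8-hSyn-Mef2c-Egfp in the nucleus accumbens of both sides, and the Sham Gfp mice had received AAV8-hSyn-Egfp there. All groups therefore shared an injection, an AAV8 vector and the Egfp gene under hSyn, a promoter active mainly in neurons. Tissue punches came from both hemispheres, and libraries were made with a stranded mRNA kit. The series also holds Sham Mef2c and SNI Gfp, with 6 libraries each, and these are used here only for values set beside the comparison. Surgery and vector both differ between SNI Mef2c and Sham Gfp, so within this comparison their parts cannot be told apart. No label ties a library to a mouse, and p-values therefore reflect only how far these libraries spread, which may be technical.

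MEF2C is a transcription factor of the MADS-box family that binds AT-rich sites in the promoters and enhancers of neuronal and muscle genes. In neurons its activity rises with calcium entry, through dephosphorylation by calcineurin and release from class IIa histone deacetylases, and it is known for limiting the number of excitatory synapses. Most neurons of the nucleus accumbens, part of the ventral striatum, are GABAergic medium spiny neurons that carry dopamine D1 or D2 receptors. Interferons are signal proteins of the antiviral response: they act through JAK kinases and STAT factors on genes that block viruses, present antigen and draw lymphocytes.

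The 6 Sham Gfp libraries had 28924194 to 34078177 counts each, and the 6 SNI Mef2c libraries 25477019 to 35601890. Medium spiny neuron markers were present in all 12 libraries, with list means of 7.47 to 8.85 log2 CPM, where CPM is the count scaled to the library total with TMM factors. SNI Mef2c replicate 1 stood apart in its tissue content. Its mean over 14 markers of cortical glutamatergic neurons was 5.63 log2 CPM, against 1.61 to 4.05 in the other SNI Mef2c libraries and 1.91 to 4.33 in Sham Gfp. Its medium spiny neuron mean was 7.47 log2 CPM, against 8.63 to 8.85 in the other 5. The sequencing index runs by group in the labels, and any effect of the order of libraries cannot be told apart from the groups.

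Mef2c (chromosome 13, 83504034 to 83667080, mm10), the gene the vector carries, was the first check of the labels. In Sham Gfp the lowest library had 139 CPM, the median was 168 CPM and the highest library had 212 CPM. In SNI Mef2c these were 474, 550 and 832 CPM. Every SNI Mef2c library lay above every Sham Gfp library, and replicates 6 and 1 were the highest. The mean was 169 CPM (SD 25.9, n = 6) in Sham Gfp and 611 CPM (SD 146, n = 6) in SNI Mef2c, a 3.61-fold rise. An exact two-sided permutation test on log2(CPM + 1) gave a difference of 1.83 and p = 0.00217, the smallest p that 924 assignments allow. The log2 fold change of Mef2c in edgeR's quasi-likelihood test was 1.85 with an SE of 0.26 (adjusted p = 0.000134). Reads were counted per gene, so transcript from the vector and from the mouse's own Mef2c gene were not told apart.

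The other 3 genes of the family did not pass. Mef2d had 227 to 333 CPM in Sham Gfp with a median of 278 CPM. In SNI Mef2c it had 319 to 335 CPM with a median of 330 CPM, inside the upper part of the Sham Gfp range apart from 2 libraries. Its log2 fold change was 0.25 (SE 0.08, adjusted p = 0.0503), just outside the threshold of 0.05. For Mef2a the log2 fold change was 0.08 (SE 0.08, adjusted p = 0.633), and its reads are uncertain because its span overlaps Lysmd4, which has more counts. For Mef2b it was -0.10 (SE 0.06, adjusted p = 0.348). Elsewhere in the series the mean of Mef2c was 243 CPM (Sham Mef2c) or 168 CPM (SNI Gfp). In Sham Mef2c it ran from 123 to 469 CPM, and replicates 2 and 5 (125 and 123 CPM) lay below every Sham Gfp library. The interaction of surgery and vector did not pass for Mef2c (adjusted p = 0.313 in edgeR's test).

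**Figure D1:**
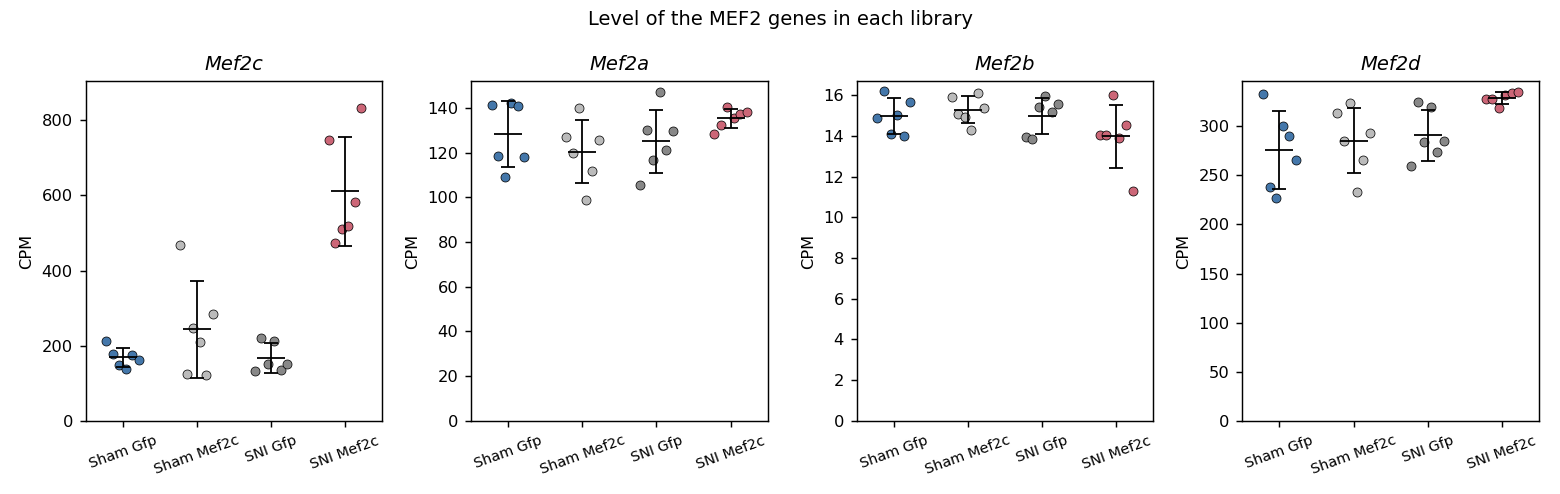
CPM (vertical axis) of Mef2c, Mef2a, Mef2b and Mef2d in each library (points) of the 4 groups, with the mean and SD as bar and whiskers. The 6 SNI Mef2c libraries lie at 474 CPM or more for Mef2c, above all 6 Sham Gfp libraries, while the groups overlap for the other 3 genes.

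Over all genes, SNI Mef2c had lower levels of a large set of immune genes, many by more than 4 log2 units, and slightly higher levels of mitochondrially encoded genes and of some neuronal genes. Of 23738 genes tested with edgeR, 2992 (12.6%) passed an adjusted p of 0.05. Of these 893 were higher in SNI Mef2c (3.76% of genes tested) and 2099 were lower (8.84%). The lower genes made up 70.15% of those that passed, and 90.84% with library size alone as the scaling, under which 270 genes were higher. The falls were large and the rises small. The genes that fell had a median log2 fold change of -1.08, and 1096 fell by more than 2-fold, 209 of them by more than 16-fold. The genes that rose had a median of 0.21, and 10 of them rose by more than 2-fold. In 1574 genes (6.63%) the 12 libraries did not overlap between the groups, with 329 genes (1.39%) higher in every SNI Mef2c library and 1245 (5.24%) lower in every SNI Mef2c library. The median log2 fold change of all genes was 0.01. These shares over all genes are the background for the counts of each gene list below, for calls and for genes without overlap.

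**Figure D2:**
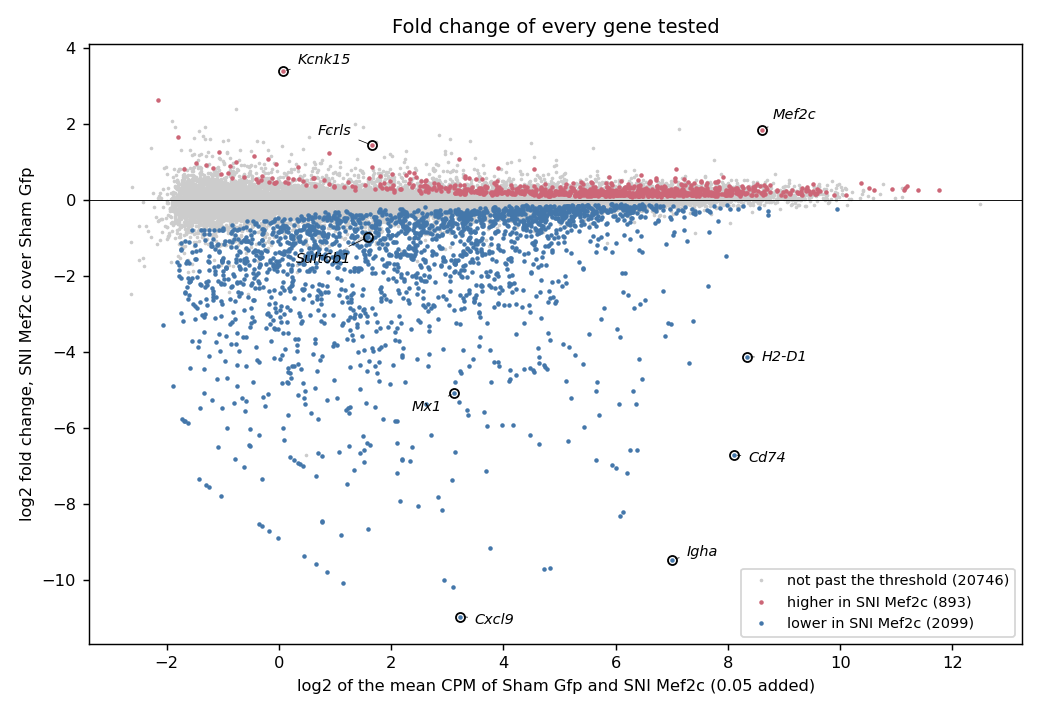
Log2 fold change of SNI Mef2c over Sham Gfp (vertical axis) against the log2 mean CPM (horizontal axis) for each of the 23738 genes tested, with the 893 genes that were higher in red and the 2099 that were lower in blue. Most red points lie close to 0, with Mef2c, Fcrls and Kcnk15 ringed above them, while the blue points reach down to Cxcl9 at -10.97.

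The smallest p-values belonged to genes that fell. Sult6b1, a sulfotransferase (chromosome 17, 78883938 to 78906992), had 3.11 to 5.31 CPM in Sham Gfp (median 3.78) and 1.83 to 2.11 CPM in SNI Mef2c (median 1.98). Every SNI Mef2c library lay below every Sham Gfp library, with a log2 fold change of -0.98 (SE 0.12). Il1a, which codes for the inflammatory cytokine interleukin 1 alpha, had 2.27 to 4.79 CPM in Sham Gfp and 0.80 to 1.02 CPM in SNI Mef2c (log2 fold change -1.78, SE 0.22), with reads that are uncertain for its overlap with a predicted gene. Zc3hav1, which codes for the zinc finger antiviral protein, had a median of 28.2 CPM in Sham Gfp and 6.03 CPM in SNI Mef2c (log2 fold change -2.22, SE 0.29). Mx1 and Ifit1 complete these 5 and are described with the interferon genes. Each of the 5 had an adjusted p of 0.000134 in edgeR's test.

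Interferon effectors fell together. Of 38 measured interferon effectors, 38 were lower in SNI Mef2c, with a median log2 fold change of -3.01, against 8.84% of all genes lower and a median of 0.01. In 37 of them every SNI Mef2c library lay below every Sham Gfp library, the exception being Samd9l, whose SNI Mef2c replicate 1 had 12.0 CPM. Mx1, a GTPase that traps viral nucleocapsids, had a lowest library of 3.78 CPM, a median of 17.1 CPM and a highest of 27.8 CPM in Sham Gfp. In SNI Mef2c the same 3 values were 0.25, 0.48 and 0.96 CPM, and the log2 fold change was -5.08 (SE 0.66). Sham Gfp replicate 3 was the lowest of its group and still lay above every SNI Mef2c library.

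Ifit1, which binds viral RNA that lacks a host cap, had 14.9 to 73.6 CPM in Sham Gfp (median 40.5) and 1.22 to 3.16 CPM in SNI Mef2c (median 1.84), a log2 fold change of -4.43 (SE 0.58). Ifit3, its partner in the same complex, went from a median of 54.9 to 4.05 CPM. Isg15, a ubiquitin-like modifier, went from a median of 22.8 to 1.42 CPM. The groups did not overlap for any of these 3 genes. Mx2 fell by 2.58 on the log2 scale (SE 0.32), and so did Eif2ak2 by 2.14 (SE 0.29), which codes for the kinase PKR that halts translation on double-stranded RNA. Eif2ak2 lies next to Sult6b1 on chromosome 17. Cmpk2, a mitochondrial nucleotide kinase, fell least among the named effectors (log2 fold change -0.62, SE 0.08). Each adjusted p was 0.000134 in edgeR's test.

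Promoters of these genes are shown because interferon-stimulated genes are known for a shared element in them, the interferon-stimulated response element, searched here on both strands as GAAA, 2 bases of any kind and GAAA again. The sequences are RefSeq windows of 300 bases on GRCm38.p6 (mm10), from 250 bases before to 50 after each start, for 4 of the interferon and MHC class I genes with the smallest p-values. Capitals mark a match to the element.
Ifit1: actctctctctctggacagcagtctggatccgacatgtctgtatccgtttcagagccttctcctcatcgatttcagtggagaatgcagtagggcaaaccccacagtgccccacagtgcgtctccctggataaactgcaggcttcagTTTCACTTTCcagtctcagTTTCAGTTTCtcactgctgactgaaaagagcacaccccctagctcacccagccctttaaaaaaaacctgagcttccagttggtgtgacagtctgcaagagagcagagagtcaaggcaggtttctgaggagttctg
Eif2ak2: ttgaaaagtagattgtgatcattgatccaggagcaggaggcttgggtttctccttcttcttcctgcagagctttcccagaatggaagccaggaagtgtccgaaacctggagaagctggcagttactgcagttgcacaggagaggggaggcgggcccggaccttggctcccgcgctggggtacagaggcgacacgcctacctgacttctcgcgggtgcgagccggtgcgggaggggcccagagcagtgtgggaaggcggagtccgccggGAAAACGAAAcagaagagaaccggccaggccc
H2-M3: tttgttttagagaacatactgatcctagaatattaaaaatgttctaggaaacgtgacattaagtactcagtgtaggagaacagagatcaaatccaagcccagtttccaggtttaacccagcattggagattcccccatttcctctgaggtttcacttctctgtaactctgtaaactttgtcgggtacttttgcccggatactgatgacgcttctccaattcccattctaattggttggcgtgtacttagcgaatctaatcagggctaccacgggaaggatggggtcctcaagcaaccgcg
Ifit3: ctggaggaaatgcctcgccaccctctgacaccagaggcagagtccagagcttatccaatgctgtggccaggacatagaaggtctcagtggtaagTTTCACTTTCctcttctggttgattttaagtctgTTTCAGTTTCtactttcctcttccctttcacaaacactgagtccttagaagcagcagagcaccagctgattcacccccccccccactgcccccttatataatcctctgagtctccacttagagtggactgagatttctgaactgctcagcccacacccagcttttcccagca
These lie at chr19:34640639-34640938 (plus strand), chr17:78882523-78882822 (minus strand), chr17:37269984-37270283 (plus strand) and chr19:34583279-34583578 (plus strand). Ifit1 and Ifit3 each hold 2 matches, Eif2ak2 holds 1 and H2-M3 holds 0.

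Among 27025 genes with a promoter entry, 3.99% hold this element in at least 1 window, and among the 14315 tested here 3.84% do. Of 27 interferon effectors with an entry, 13 hold it (48.1%), and of 10 interferon-gamma GTPases 9 do. Of 17 MHC class I genes 5 hold it (29.4%), and of 14 T and cytotoxic lymphocyte genes 0 do. The gamma-activated site, searched as TTCNNNGAA on both strands, is in 9.55% of all genes with an entry and in 8.53% of those tested. It is in 6 of the 10 GTPases and in 7 of the 27 effectors (25.9%). Eif2ak2 and H2-M3 each hold 1 such match. A match describes the letters of the window and does not show that a factor binds there.

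Fewer of the signalling genes upstream passed. Of 21 measured receptors, kinases, IRFs and STATs, 14 fell (median log2 fold change -0.73) and 0 rose. Stat2 (log2 fold change -1.92, SE 0.30) and Irf9 (-2.27, SE 0.31), parts of the complex that carries type I interferon signals to the nucleus, both fell. Irf7, the factor that amplifies type I interferon, had -4.54 (SE 0.63), and Irf1 had -3.50 (SE 0.56). Irf7 overlaps Phrf1 and Irf9 overlaps Rnf31, so reads of both are uncertain. Of the receptor chains, Ifnar2 fell (-0.50, SE 0.11, adjusted p = 0.00196) and Ifnar1 did not pass (-0.10, SE 0.04, adjusted p = 0.143).

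The GTPases that interferon-gamma induces in cells attacked by intracellular microbes had the lowest median of all gene lists. All 15 measured interferon-gamma GTPases were lower, without overlap between the groups, and their median log2 fold change was -5.36. Iigp1 had 75.7 to 308 CPM in Sham Gfp and 1.41 to 1.95 CPM in SNI Mef2c (log2 fold change -6.58, SE 1.06, adjusted p = 0.000196 in edgeR's test). Igtp (-5.98, SE 0.92) and Irgm1 (-4.18, SE 0.64) followed. Gbp2, a guanylate-binding protein, had a median of 71.9 CPM in Sham Gfp and 3.97 CPM in SNI Mef2c. These genes have close paralogs that may share reads, and Igtp overlaps Irgm2, so single values are uncertain. Ifng, the gene of interferon-gamma itself, had 0.15 to 1.28 CPM in Sham Gfp and 1 count, in replicate 6, in all 6 SNI Mef2c libraries together, against 104 in Sham Gfp (ratio 101, exact 95% interval 17.7 to 4021 for counting error).

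Antigen presentation fell in both classes. All 20 measured genes of MHC class I presentation, which shows peptides from inside the cell to CD8 T cells, were lower without overlap between the groups (median log2 fold change -3.69). H2-D1, a classical class I heavy chain, had 403 to 890 CPM in Sham Gfp (median 614 CPM) and 28.8 to 42.2 CPM in SNI Mef2c (median 34.6 CPM). Its light chain B2m went from a median of 223 to 22.9 CPM, and H2-K1 from 305 to 14.9 CPM. Every SNI Mef2c library lay below the Sham Gfp range for these 3 genes. Tap1, which pumps peptides into the endoplasmic reticulum, fell by 4.79 on the log2 scale (SE 0.73). The immunoproteasome subunit Psmb8 had -4.71 (SE 0.73) and Nlrc5, the coactivator of class I genes, -5.04 (SE 0.85). H2-M3 had -2.51 (SE 0.34) and the peptide editor Tapbp -1.31 (SE 0.20). The H2 genes resemble each other closely and B2m overlaps Patl2, so how reads divide among them is uncertain.

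MHC class II presentation, which belongs to microglia, macrophages, dendritic cells and B cells, had a lower median. All 10 measured genes were lower (median log2 fold change -4.67), 9 of them without overlap. Cd74, the invariant chain, had 285 to 932 CPM in Sham Gfp (median 543 CPM) and 3.45 to 7.11 CPM in SNI Mef2c (median 5.09 CPM). Its log2 fold change was -6.71 (SE 1.20, adjusted p = 0.000417 in edgeR's test). H2-Aa (-7.05, SE 1.26) and H2-Ab1 (-6.59, SE 1.16) code for the chains of the class II molecule. Ciita, the class II transactivator, had -1.65 (SE 0.39), with SNI Mef2c replicate 1 at 9.84 CPM inside the Sham Gfp range, and its reads are uncertain for its overlap with Dexi. Ctss, the protease that trims the invariant chain, went from a median of 331 to 70.1 CPM.

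**Figure D3:**
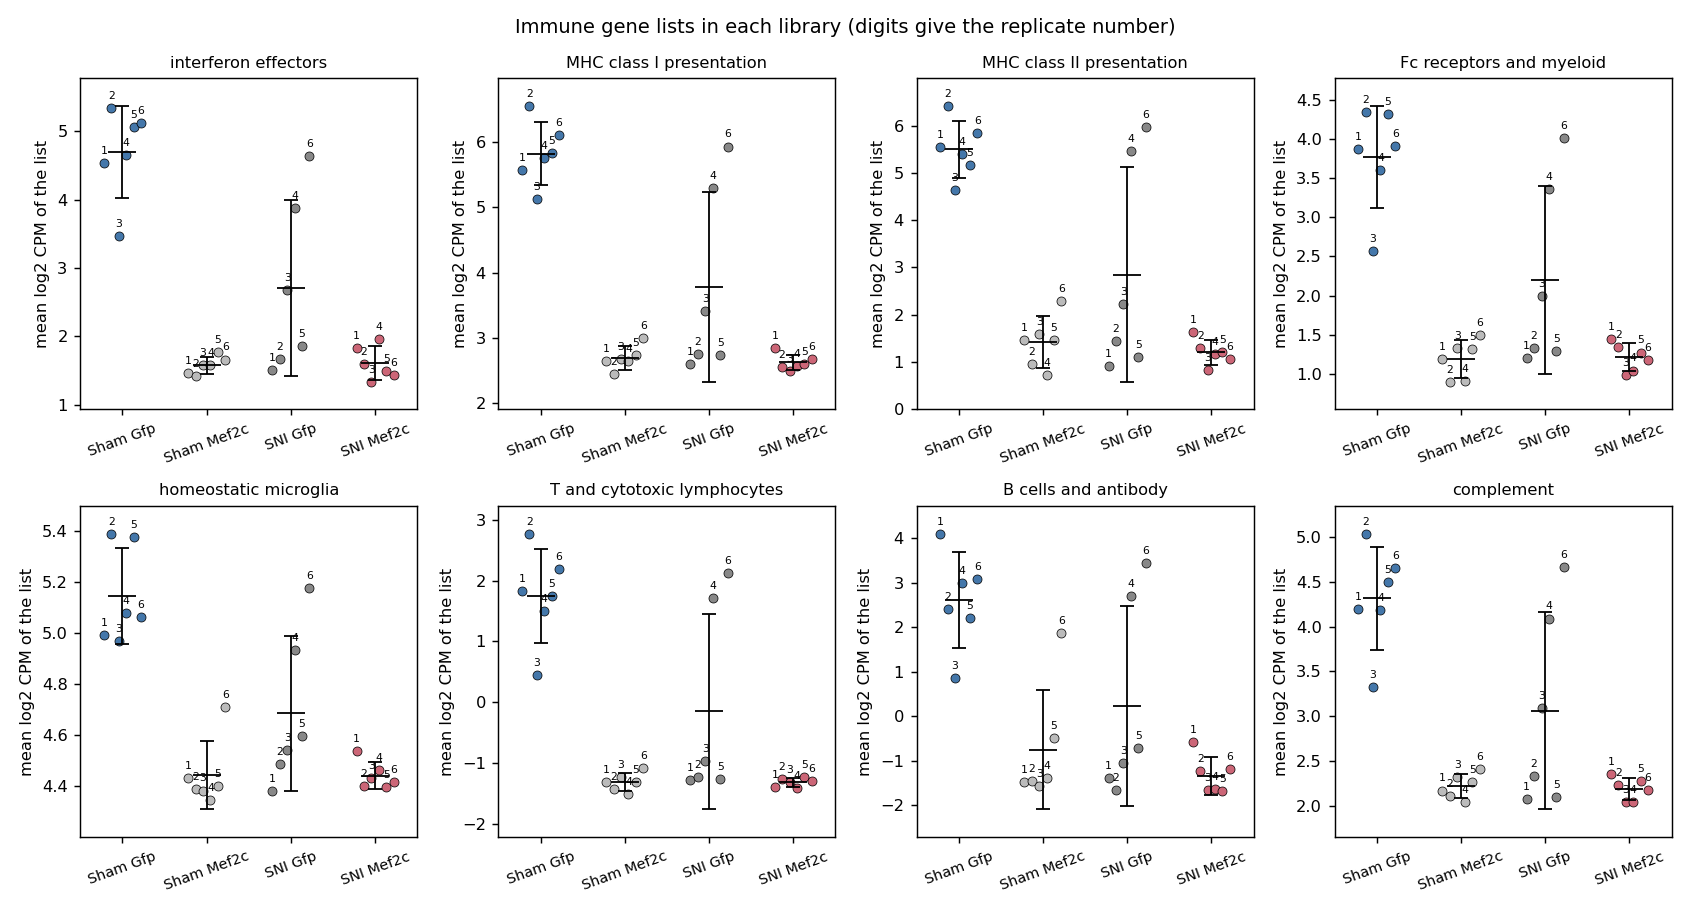
Mean log2 CPM (vertical axis) of 8 immune gene lists in each library of the 4 groups, with the replicate number above each point and mean and SD as bar and whiskers. All 6 SNI Mef2c libraries lie below all 6 Sham Gfp libraries in each panel; Sham Gfp replicate 3 is the lowest of its group, and SNI Gfp replicates 4 and 6 lie among the Sham Gfp libraries in most panels.

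Microglial genes had a median closer to 0 than the interferon effectors and the interferon-gamma GTPases. Of 17 homeostatic microglia genes 12 fell, 1 rose and 4 did not pass (median log2 fold change -0.79). Csf1r, the receptor on which microglial survival depends, had 169 to 273 CPM in Sham Gfp (median 195 CPM) and 94.4 to 111 CPM in SNI Mef2c (median 97.4 CPM). The groups did not overlap (log2 fold change -1.09, SE 0.17, adjusted p = 0.000159 in edgeR's test). Tmem119 fell by 1.21 and Sall1 by 0.64 on the log2 scale, and the fractalkine receptor Cx3cr1 by 0.45. P2ry12, the purinergic receptor of surveying microglia, had a median of 31.7 CPM in Sham Gfp and 30.5 CPM in SNI Mef2c (log2 fold change -0.07, SE 0.05, adjusted p = 0.472). In bulk tissue, fewer cells of a type and less RNA per cell cannot be told apart.

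Fcrls, an Fc receptor-like gene that marks microglia, rose while most of its list fell. It had 1.28 to 2.35 CPM in Sham Gfp (median 1.53) and 3.99 to 5.84 CPM in SNI Mef2c (median 4.29), without overlap. Its log2 fold change was 1.44 (SE 0.26, adjusted p = 0.000556 in edgeR's test). Sham Mef2c had a mean of 3.98 CPM and SNI Gfp one of 2.98 CPM. In SNI Gfp, replicates 4 and 6, which lay with Sham Gfp in the immune lists, had 1.17 and 1.74 CPM, and replicate 1 had 1.92 CPM.

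Genes of activated microglia and of other myeloid cells were lower as well. Of 20 genes of disease-associated microglia 15 fell and 0 rose (median log2 fold change -0.80). Itgax, which codes for CD11c, had 5.11 to 31.3 CPM in Sham Gfp and 0.20 to 1.29 CPM in SNI Mef2c (log2 fold change -4.51, SE 0.75). Cst7, a cathepsin inhibitor, had -4.18 (SE 0.74), and the phagocytic receptor Axl had -1.02 (SE 0.17). Apoe, the lipid carrier, fell by 0.24 on the log2 scale (SE 0.06), and Lpl, lipoprotein lipase, did not pass (0.36, SE 0.25, adjusted p = 0.392).

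Of 21 genes for Fc receptors and myeloid cells 19 fell (median log2 fold change -2.24). Ptprc, the pan-leukocyte marker CD45, had 13.7 to 62.2 CPM in Sham Gfp and 4.52 to 5.97 CPM in SNI Mef2c, without overlap. Fcgr4, an activating receptor for IgG, had a median of 9.65 CPM in Sham Gfp and 0.08 CPM in SNI Mef2c. Ly6c2 and Ccr2, which mark monocytes that enter from blood, had log2 fold changes of -6.84 (SE 1.29) and -3.85 (SE 0.72). Mrc1 and Cd163, markers of macrophages along vessels and meninges, did not pass: Mrc1 had -0.31 (SE 0.36, adjusted p = 0.658) and Cd163 had 0.33 (SE 0.42, adjusted p = 0.697) in edgeR's test. Cd163 was lowest in Sham Gfp replicate 3 (7.31 CPM) and SNI Mef2c replicate 1 (11.2 CPM). These libraries also had the lowest medium spiny neuron means of their groups, and which cells gave the Cd163 reads was not tested.

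Complement, the cascade that tags synapses and microbes for uptake, fell in 12 of 15 measured genes (median log2 fold change -2.39). C1qa, a chain of its starter protein, went from a median of 200 CPM (lowest 101) in Sham Gfp to 36.8 CPM (highest 41.0) in SNI Mef2c. C3 fell by 5.66 (SE 1.09) and C4b by 3.18 (SE 0.49) on the log2 scale, both without overlap between the groups. Of 17 Toll-like receptors and sensing genes 15 fell. Among them were Tlr2 (-2.89, SE 0.51), Tlr9 (-2.59, SE 0.40) and Unc93b1 (-1.82, SE 0.28), which carries endosomal Toll-like receptors to their compartment.

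Of 25 cytokines and chemokines 21 fell and 0 rose (median log2 fold change -4.19). Cxcl9, an interferon-gamma-induced chemokine for T cells, was the largest fall among named genes. It had 2.54 to 38.1 CPM in Sham Gfp, 3591 counts in all, against 1 count, in replicate 6, over the 6 SNI Mef2c libraries, a ratio of counts of 3482 with an exact 95% interval of 625 to 137600 that covers counting error only. Cxcl10, which shares its receptor, had a median of 13.3 CPM against 0.05 CPM, with uncertain reads for its overlap with Art3. Ccl5 went from 14.8 to 0.08 CPM and Cxcl13, a B-cell attractant, from 48.5 to 0.67 CPM. Tnf (-4.44, SE 0.77) and Ccl2 (-5.12, SE 0.81) fell too, with fewer than 5 CPM in every library.

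Most lymphocyte genes were at or near 0 in SNI Mef2c. Of 25 genes of T and cytotoxic lymphocytes 21 fell (median log2 fold change -4.35). Cd3g, the gamma chain of CD3, had 1.30 to 7.93 CPM in Sham Gfp and 1 count, in replicate 2, over 6 SNI Mef2c libraries against 806 in Sham Gfp, a ratio of 782 (exact 95% interval 140 to 30910 for counting error). Cd3e had 478 counts in Sham Gfp and 3 in SNI Mef2c, a ratio of 154 (52.5 to 752). Cd8a had 1.49 to 13.7 CPM in Sham Gfp and at most 0.10 CPM in SNI Mef2c (-7.10, with -6.48 without Sham Gfp replicate 2 and -7.74 without SNI Mef2c replicate 1). Gzmb, granzyme B of cytotoxic cells, had 284 counts in Sham Gfp and 0 in SNI Mef2c, which makes it at least 91.8-fold lower against a floor of 3 counts over the group. Cd4 did not pass, with 14.2 to 39.7 CPM in Sham Gfp and 25.3 to 35.5 CPM in SNI Mef2c (log2 fold change 0.21, SE 0.28, adjusted p = 0.707 in edgeR's test). Its level in SNI Mef2c stood apart from that of the CD3 genes, and which cells gave its reads was not tested.

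Antibody genes supplied 12 of the 15 largest falls. All 13 measured genes of B cells and antibody were lower (median log2 fold change -4.26), and of 28 antibody gene segments tested 26 were lower and 0 higher. Igha, the constant region of IgA, had 65.1 to 805 CPM in Sham Gfp (median 110 CPM) and 0 to 1.40 CPM in SNI Mef2c (median 0.14 CPM). Sham Gfp replicates 1 and 4 were the highest, and the groups did not overlap (log2 fold change -9.47, SE 2.08, adjusted p = 0.00295 in edgeR's test). It was -8.66 without Sham Gfp replicate 1 and -10.66 without SNI Mef2c replicate 1, and passed in both. Ighg2b, Ighg2c and Ighg3, constant regions of IgG, had medians of 23.5, 30.7 and 10.1 CPM in Sham Gfp and at most 0.27 CPM in any SNI Mef2c library. Their log2 fold changes were -9.72, -9.69 and -9.17. They were -8.86, -8.96 and -8.54 without Sham Gfp replicate 1, and -10.53, -10.90 and -10.19 without SNI Mef2c replicate 1.

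The variable segments differed widely between Sham Gfp libraries. Igkv6-13 had 0 to 70.8 CPM in Sham Gfp, the highest in replicate 1, and 2 counts over SNI Mef2c, a ratio of counts of 1574 (exact 95% interval 435 to 13000 for counting error). The fitted log2 fold change of Igkv6-13 was -10.19, and -8.72 without Sham Gfp replicate 1 (adjusted p = 0.0461 in edgeR's test). Igkv10-96 had 0.45 to 46.7 CPM in Sham Gfp and 2 counts over SNI Mef2c, a ratio of 1389 (384 to 11470). Its fitted value was -10.02, with -9.26 without Sham Gfp replicate 1 and -11.91 without SNI Mef2c replicate 1. Ighv9-3, Igkv5-48, Igkj2, Ighv3-1, Ighv9-2 and Ighv9-1 had 0 counts in SNI Mef2c. Against a floor of 3 counts over the group they were at least 217-fold, 184-fold, 163-fold, 115-fold, 103-fold and 93.7-fold lower, in that order. Igkj2, Ighv3-1 and Ighv9-1 lost the call without Sham Gfp replicate 1 and without any of SNI Mef2c replicates 2 to 6, Igkj2 also without Sham Gfp replicate 2 or 6, and Ighv9-1 without Sham Gfp replicate 3 or 4. Without the filter on low counts Igkv5-48, Igkj2, Ighv3-1, Ighv9-2 and Ighv9-1 did not pass. Jchain, which links IgA and IgM units, had 19.2 to 205 CPM in Sham Gfp against 0.69 to 1.37 CPM (-6.35, and -5.66 without Sham Gfp replicate 1). Igkc, the kappa light chain, had 37.5 to 371 CPM against 0.03 to 1.57 CPM (-8.34, with -7.71 without Sham Gfp replicate 1 and -9.46 without SNI Mef2c replicate 1). Igkc and Igkj2 overlap a predicted gene, and antibody segments resemble each other, so their reads are uncertain. The remaining large fall was Ubd, an interferon-induced ubiquitin-like gene, with 1145 counts in Sham Gfp and 2 in SNI Mef2c, a ratio of 555 (153 to 4590). Its fitted log2 fold change was -8.65, and -8.03 without Sham Gfp replicate 2.

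Some genes of astrocytes and of vessels fell. Of 20 reactive astrocyte genes 12 fell and 0 rose (median log2 fold change -1.36), where 8.84% of all genes fell. In 2 of the 20 every SNI Mef2c library lay below every Sham Gfp library, against 5.24% of all genes. The list's largest fall, -8.16, without overlap, was that of Cxcl10, which is also counted with the cytokines and chemokines. Gfap, the filament protein of reactive astrocytes, had 117 to 561 CPM in Sham Gfp (median 351 CPM) and 64.7 to 190 CPM in SNI Mef2c (median 127 CPM). The groups overlapped through Sham Gfp replicate 3, and the log2 fold change was -1.49 (SE 0.42, adjusted p = 0.0207 in edgeR's test), which did not pass without Sham Gfp replicate 2 or 5. Vim had -1.93 (SE 0.44). Among 18 homeostatic astrocyte genes, Slc1a2, the main glutamate transporter, rose (0.38, SE 0.11), Glul, glutamine synthetase, rose (0.22, SE 0.07) and Aldh1l1 fell (-0.42, SE 0.09). The rise of Slc1a2 did not pass without Sham Gfp replicate 2 or 6, and that of Glul not without any of 7 libraries in turn, among them SNI Mef2c replicate 1 (0.16). With the 12 libraries fitted alone neither passed.

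Of 17 endothelial genes 4 fell, against 8.84% of all genes lower, and the list's median log2 fold change was -0.04. They were the adhesion molecules Icam1 (-2.58, SE 0.44) and Vcam1 (-1.63, SE 0.29), which inflamed endothelium uses to hold leukocytes, and the antigens Ly6a (-1.72, SE 0.30) and Ly6c1. The tight junction gene Cldn5 did not pass (-0.05, SE 0.11, adjusted p = 0.852). Lists of pericytes and smooth muscle, fibroblasts and meninges, choroid plexus and ependyma, and blood cells had 0 genes past the threshold in edgeR's test. In myelin and oligodendrocytes 1 of 18 genes fell, the iron carrier Trf (-0.55, SE 0.14). With 8.84% of all genes lower, that count is near the background. Of 13 cell cycle genes 7 fell, against 8.84% of all genes. Among them were Cdk1 (-3.01, SE 0.53) and Top2a (-2.31, SE 0.55, and -2.90 without SNI Mef2c replicate 3). Only Cdk1, 1 of the 13, had every SNI Mef2c library below every Sham Gfp library, against 5.24% of all genes. Mki67 did not pass (-0.95, SE 0.32, adjusted p = 0.0508 in edgeR's test). The count for the cell cycle was 4 without Sham Gfp replicate 2 and 11 without Sham Gfp replicate 3.

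**Figure D4:**
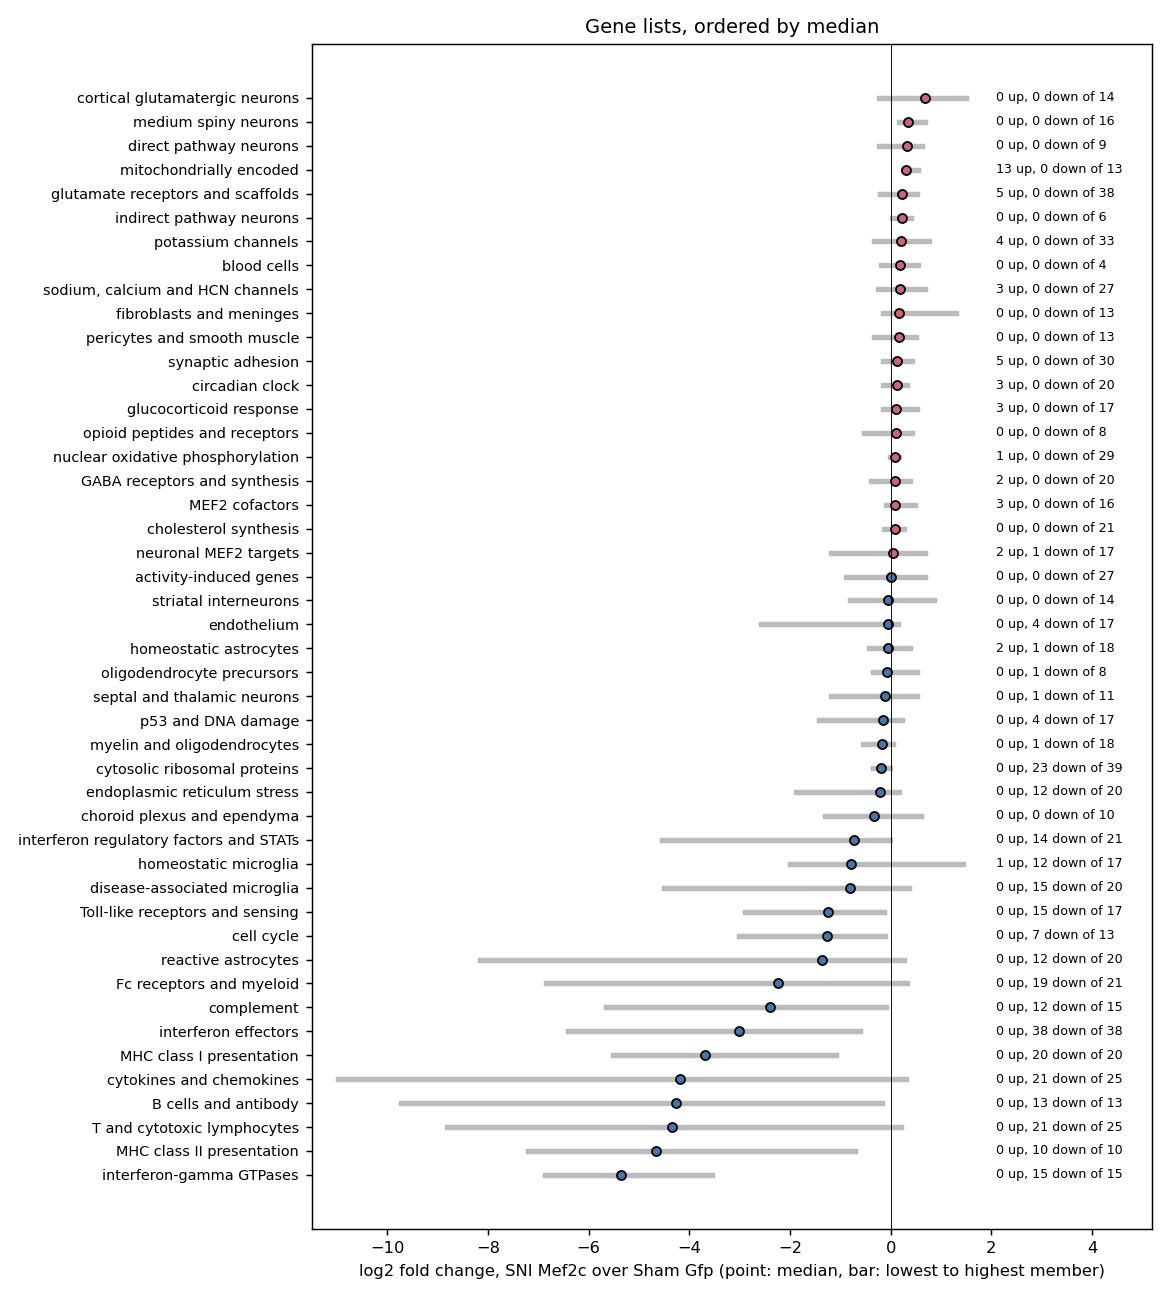
Median (point) and lowest to highest member (bar) of the log2 fold change of SNI Mef2c over Sham Gfp (horizontal axis) for 46 gene lists, with the counts of genes that passed at the right. Immune lists fill the lower rows, down to a median of -5.36 for the interferon-gamma GTPases, and the mitochondrially encoded genes have a median of 0.31.

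The rises were fewer and smaller than the falls. Kcnk15, a gene of the K2P potassium channels, had the largest (log2 fold change 3.39, SE 1.00, adjusted p = 0.0264 in edgeR's test). It had 0.06 to 0.37 CPM in Sham Gfp, and in SNI Mef2c replicates 1, 4 and 5 had 6.84, 2.44 and 1.60 CPM while the other 3 had at most 0.06 CPM. Those 3 libraries also had the highest means of cortical markers, 5.63, 4.05 and 4.02 log2 CPM. With the mean of cortical markers as a covariate the log2 fold change of Kcnk15 was 2.24 and the call was kept (adjusted p = 0.02995 in edgeR's test). Without SNI Mef2c replicate 1 it was 2.27 and did not pass (adjusted p = 0.113). The call was also lost without Sham Gfp replicate 2 or 6, without the filter on low counts and with limma-voom, which gave 0.66. Mef2c and Fcrls came next by fold change.

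Nrn1l (1.24, SE 0.37), which overlaps Edc4 and is uncertain, Wnk4 (1.08, SE 0.36), a kinase that regulates ion transport, and Tspear (0.86, SE 0.26) followed. Nrn1l lost the call in 10 and Tspear in 6 of 21 settings, most of them with 1 library left out. Wnk4 had 3.18 to 9.08 CPM in Sham Gfp and 9.78 to 19.3 CPM in SNI Mef2c. Its call was lost without any of 11 of the 12 libraries in turn. With all libraries kept, it was also lost with library size alone, without the filter on low counts and with the mean of cortical markers as a covariate. Gpr26, a receptor with high constitutive activity, had 66.2 to 124 CPM in Sham Gfp and 118 to 219 CPM in SNI Mef2c (0.83, SE 0.24), with reads that are uncertain for its overlap with Fgfr2, and did not pass without Sham Gfp replicate 4 or 5 or SNI Mef2c replicate 4, or without the filter on low counts. Rprm, a p53-induced cell cycle inhibitor, had 11.3 to 21.5 CPM against 18.2 to 62.7 CPM, the highest in SNI Mef2c replicate 1. Its log2 fold change was 0.83, and 0.47 without SNI Mef2c replicate 1, where it did not pass (adjusted p = 0.134 in edgeR's test). With the mean of cortical markers as a covariate Rprm had 0.69 and did not pass (adjusted p = 0.0543). The call was also lost without SNI Mef2c replicate 4 or Sham Gfp replicate 1, 4 or 5, with library size alone, without the filter on low counts and with the 12 libraries fitted alone.

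Bves (0.68, SE 0.16, adjusted p = 0.00441), Hipk4 (0.65, SE 0.16, adjusted p = 0.00767) and Kirrel2 (0.61, SE 0.15, adjusted p = 0.00732) rose without overlap between the groups in edgeR's test and kept the call under every setting tried. Hipk4, a kinase of the homeodomain-interacting family, had 58.4 to 87.1 CPM in Sham Gfp (median 63.5 CPM) and 87.5 to 118 CPM in SNI Mef2c (median 108 CPM). Kirrel2, an adhesion molecule of the immunoglobulin superfamily, had 3.32 to 5.30 CPM against 5.90 to 8.48 CPM. The other 4 of the 15 largest rises were Tll1, Baiap2l2, Cited4 and Ccno, with log2 fold changes between 0.63 and 0.73, and each lost the call in at least 6 of 21 settings. Without SNI Mef2c replicate 1 Tll1 went from 0.73 to 0.55 (adjusted p = 0.103 in edgeR's test) and Baiap2l2 from 0.71 to 0.36 (adjusted p = 0.141), and neither passed.

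The genes of the mitochondrial genome rose together. All 13 measured mitochondrially encoded genes were higher in SNI Mef2c, with a median log2 fold change of 0.31, against 3.76% of all genes higher. In 7 of them every SNI Mef2c library lay above every Sham Gfp library, against 1.39% of all genes. mt-Co2, a cytochrome c oxidase subunit, had 37.1 to 57.7 CPM in Sham Gfp (median 50.8 CPM) and 59.4 to 72.1 CPM in SNI Mef2c (median 66.1 CPM), up by 0.44 on the log2 scale (SE 0.08, adjusted p = 0.000584 in edgeR's test). mt-Cytb had a median of 2469 CPM in Sham Gfp and 2891 CPM in SNI Mef2c. Sham Gfp replicates 5 and 6 had the lowest list means, 7.45 and 7.30 log2 CPM. With the 12 compared libraries fitted alone 6 of the 13 mitochondrially encoded genes passed. Of 29 nuclear genes of oxidative phosphorylation 1 rose, Ndufa4 (0.18, SE 0.05), which did not pass without Sham Gfp replicate 5 or 6 or SNI Mef2c replicate 5, or with library size alone. That share is near the background.

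Cofactors and regulators of MEF2 shifted little. Of 16 measured MEF2 cofactors 3 rose and 0 fell (median log2 fold change 0.09), where 3.76% of all genes rose and 8.84% fell. Carm1, an arginine methyltransferase that coactivates MEF2, had 76.0 to 79.8 CPM in Sham Gfp and 82.8 to 87.0 CPM in SNI Mef2c, without overlap (0.13, SE 0.03, adjusted p = 0.00108 in edgeR's test). With library size alone as the scaling Carm1 did not pass. Ppp3cb and Ppp3r1, subunits of calcineurin, had 0.25 (SE 0.06) and 0.32 (SE 0.09), and Ppp3r1 did not pass without Sham Gfp replicate 2 or 6. Of 17 neuronal MEF2 targets 2 rose and 1 fell, against 3.76% and 8.84% of all genes. The list's median of 0.04 turned to -0.02 with library size alone.

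Rgs4, a brake on G-protein signalling, had 152 to 240 CPM in Sham Gfp (median 179 CPM) and 227 to 371 CPM in SNI Mef2c (median 301 CPM), with 4 of 6 libraries above the Sham Gfp range (0.60, SE 0.16, adjusted p = 0.0124 in edgeR's test). Kcna1, a voltage-gated potassium channel gene, rose by 0.44 (SE 0.14), a call lost in 13 of 21 settings. Prkcd, protein kinase C delta, fell (-1.18, SE 0.35), and it is also on the list of septal and thalamic neurons. Its call was lost without Sham Gfp replicate 2, 5 or 6 or SNI Mef2c replicate 4 or 5, and without the filter on low counts. Arc (-0.07, SE 0.40) and Nr4a1 (-0.18, SE 0.29), known activity-dependent MEF2 targets, did not pass. Of 27 activity-induced genes, Fos among them (-0.54, SE 0.54, adjusted p = 0.596), 0 passed in edgeR's test.

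Synaptic and channel genes had small rises in a minority of members. Of 38 genes for glutamate receptors and scaffolds 5 rose and 0 fell (median log2 fold change 0.23), against 3.76% of all genes higher and a median of 0.01. Grin2b, an NMDA receptor subunit, had 330 to 390 CPM in Sham Gfp (median 372 CPM) and 430 to 502 CPM in SNI Mef2c (median 452 CPM), without overlap. Its log2 fold change was 0.33 (SE 0.10, adjusted p = 0.0289 in edgeR's test). The scaffold gene Dlg3 (0.29, SE 0.08) also had no overlap. Grin1, Grik5 and Grin2c had 0.19 to 0.45, and each lost the call in 10 or more of 21 settings. Without SNI Mef2c replicate 1 these had 0.16, 0.30 and 0.35 and did not pass. The call for Grin2b was lost without Sham Gfp replicate 2 or 3 or SNI Mef2c replicate 4, and with library size alone. The count for glutamate receptors and scaffolds was 8 without Sham Gfp replicate 1, 2 without Sham Gfp replicate 6 or SNI Mef2c replicate 5, and 1 without Sham Gfp replicate 2 or 3 or SNI Mef2c replicate 4. It was 12 with the mean of cortical markers as a covariate and 1 with library size alone. Dlg4, which codes for PSD-95, did not pass (0.24, SE 0.08, adjusted p = 0.0674).

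Of 30 synaptic adhesion genes 5 rose, where 3.76% of all genes did. Nlgn3, a postsynaptic partner of neurexins, had 81.2 to 93.9 CPM in Sham Gfp and 97.5 to 108 CPM in SNI Mef2c, without overlap (0.18, SE 0.04, adjusted p = 0.00162 in edgeR's test). Adgrl1 (0.28, SE 0.07) and Slitrk3 (0.35, SE 0.10) followed, and Slitrk3 did not pass without Sham Gfp replicate 2. The count for synaptic adhesion was 3 without Sham Gfp replicate 2, 4, 5 or 6 or SNI Mef2c replicate 5. Of 33 potassium channels 4 rose, against 3.76% of all genes, led by Kcnq3 (0.46, SE 0.10), a subunit of M-current channels. Kcnq3 had 164 to 207 CPM in Sham Gfp and 225 to 283 CPM in SNI Mef2c, without overlap, and kept its call in all 21 settings. The count for potassium channels was 2 without Sham Gfp replicate 2, 3 or 4 or SNI Mef2c replicate 5, and 1 without Sham Gfp replicate 6 or SNI Mef2c replicate 4. Of 27 sodium, calcium and HCN channels 3 rose, against 3.76% of all genes. They were Scn2a (0.24, SE 0.06), Cacna2d1 (0.43, SE 0.13) and Scn2b (0.22, SE 0.07). Without SNI Mef2c replicate 1 Cacna2d1 had 0.31 and did not pass (adjusted p = 0.055 in edgeR's test), nor did it without Sham Gfp replicate 2, 5 or 6. With the 12 libraries fitted alone none of these 3 channel genes passed, and Scn2b lost the call in 13 of 21 settings. The count for sodium, calcium and HCN channels was 1 without Sham Gfp replicate 2, 5 or 6. Of 20 genes for GABA receptors and synthesis 2 rose, against 3.76% of all genes, among them Gabbr1 (0.15, SE 0.04), a subunit of the GABA-B receptor. The count for GABA receptors and synthesis was 0 without Sham Gfp replicate 5 or 6 or SNI Mef2c replicate 5, and 1 without Sham Gfp replicate 2 or 3 or SNI Mef2c replicate 2, 3, 4 or 6.

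Markers of the striatal neurons themselves did not pass. In the lists of direct pathway neurons, indirect pathway neurons, medium spiny neurons, opioid peptides and receptors, and striatal interneurons, 0 genes passed in edgeR's test. All 16 medium spiny neuron genes had a positive log2 fold change (median 0.34). Drd1, the dopamine D1 receptor, had 96.6 to 232 CPM in Sham Gfp (median 194 CPM) and 61.8 to 296 CPM in SNI Mef2c (median 248 CPM), the lowest in SNI Mef2c replicate 1. Its log2 fold change was 0.33 (SE 0.30, adjusted p = 0.549). Drd2 (0.34, SE 0.25), Ppp1r1b (0.38, SE 0.22), Penk (0.32, SE 0.22) and Pdyn (0.27, SE 0.40) were alike in that replicate 1 was the lowest SNI Mef2c library. Without that library 3 of the 16 medium spiny neurons genes passed as higher and their median was 0.50. The median of cortical glutamatergic neurons was 0.69 with it and -0.30 without it.

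**Figure D5:**
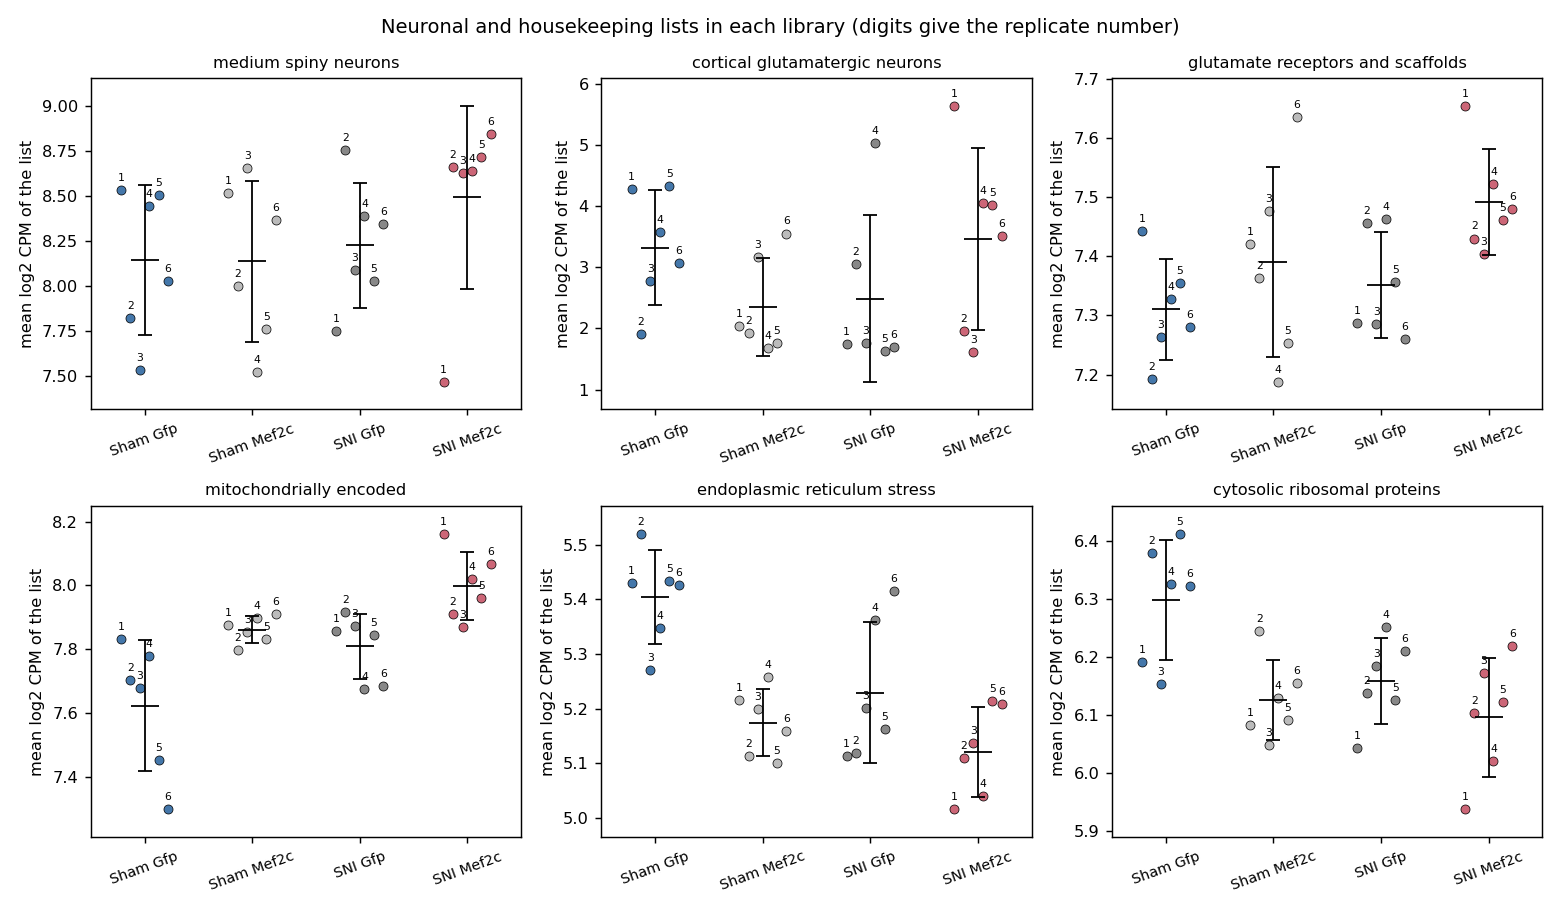
Mean log2 CPM (vertical axis) of 6 gene lists in each library of the 4 groups, with the replicate number above each point and mean and SD as bar and whiskers. SNI Mef2c replicate 1 is lowest for medium spiny neurons (7.47) and highest for cortical neurons (5.63), and the mitochondrially encoded genes lie higher and the endoplasmic reticulum genes lower in SNI Mef2c than in any Sham Gfp library.

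Chaperones of the endoplasmic reticulum and ribosomal proteins had small falls. Of 20 genes of endoplasmic reticulum stress 12 fell and 0 rose (median log2 fold change -0.21), where 8.84% of all genes fell. In 7 of the 20 every SNI Mef2c library lay below every Sham Gfp library, against 5.24% of all genes. Sdf2l1, a cochaperone, had 7.50 to 10.5 CPM in Sham Gfp (median 9.08 CPM) and 3.82 to 5.91 CPM in SNI Mef2c (median 4.65 CPM), and fell by 0.91 on the log2 scale (SE 0.14, adjusted p = 0.00015 in edgeR's test). Hspa5, the chaperone BiP, had 179 to 220 CPM against 138 to 178 CPM (-0.32, SE 0.07). Pdia3 (-0.33, SE 0.06), Calr (-0.25, SE 0.05) and Hsp90b1 (-0.25, SE 0.07) fell too. Atf3, a stress-induced factor, had -1.88 (SE 0.46), and Atf4, the factor that drives the stress programme, did not pass (-0.11, SE 0.08, adjusted p = 0.439).

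Of 39 cytosolic ribosomal proteins 23 fell and 0 rose (median log2 fold change -0.20), where 8.84% of all genes fell and 3.76% rose. In 3 of the 39 every SNI Mef2c library lay below every Sham Gfp library, against 5.24% of all genes. Rpl23 went from a median of 81.0 CPM in Sham Gfp to 66.7 CPM in SNI Mef2c without overlap (-0.30, SE 0.05). The count for cytosolic ribosomal proteins was 12 without Sham Gfp replicate 2 or 5, 15 without SNI Mef2c replicate 4, and 35 with library size alone. Of 17 genes of p53 and DNA damage 4 fell, against 8.84% of all genes. Among them were Fas (-1.42, SE 0.32) and Trp53 itself (-0.22, SE 0.06). In 1 of the 17 the SNI Mef2c libraries all lay below the Sham Gfp range, against 5.24% of all genes. The p53 target Cdkn1a did not pass (-0.15, SE 0.21, adjusted p = 0.719 in edgeR's test). Of 20 circadian clock genes 3 rose, against 3.76% of all genes. They were Nr1d1 (0.28, SE 0.05), which overlaps Thra, Cry2 (0.21, SE 0.05) and Clock (0.14, SE 0.04). Clock did not pass without Sham Gfp replicate 6 or SNI Mef2c replicate 4 or 5, and the count for the circadian clock was 6 without Sham Gfp replicate 1 and 5 without SNI Mef2c replicate 1. Of 17 glucocorticoid response genes 3 rose, against 3.76% of all genes. They were Mt1 (0.23, SE 0.06), Sult1a1 (0.52, SE 0.15), which overlaps Sgf29, and Klf9 (0.48, SE 0.15). Sult1a1 did not pass without Sham Gfp replicate 5, and Klf9 not without Sham Gfp replicate 2, 3 or 6 or SNI Mef2c replicate 4 or 5. The overlaps make Nr1d1 and Sult1a1 uncertain.

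The values of the remaining groups are set beside these. They share the Sham Gfp libraries with this comparison, so likeness between them is not a result. For the interferon effectors the median log2 fold change against Sham Gfp was -3.01 in SNI Mef2c, -3.18 in Sham Mef2c and -1.58 in SNI Gfp. For MHC class I presentation these were -3.69, -3.60 and -1.46, and for T and cytotoxic lymphocytes -4.35, -3.98 and -1.33. The list mean of the interferon effectors lay between 1.34 and 1.97 log2 CPM in SNI Mef2c, between 1.42 and 1.77 in Sham Mef2c and between 3.47 and 5.35 in Sham Gfp. In SNI Gfp, replicates 4 and 6 had 3.88 and 4.65 log2 CPM, within the Sham Gfp range, and the other 4 had 1.50 to 2.68.

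Tested directly, SNI Mef2c differed from Sham Mef2c in 0 genes and from SNI Gfp in 1 gene, Mef2c (0.00421% of genes tested, adjusted p = 0.00627 in edgeR's test). At an unadjusted p under 0.05 these comparisons had 3816 and 3383 genes. SNI Gfp differed from Sham Gfp in 0 genes (2928 at an unadjusted p under 0.05), and Sham Mef2c from Sham Gfp in 2233 (9.41%). The interaction, which asks whether SNI Mef2c departs from the sum of the separate differences of injury and vector, passed in 0 genes in edgeR's test (3528 at an unadjusted p under 0.05). For mitochondrially encoded genes the median against Sham Gfp was 0.31 in SNI Mef2c, 0.21 in Sham Mef2c and 0.13 in SNI Gfp. For glutamate receptors and scaffolds it was 0.23, 0.06 and 0.05.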

How the data were processed

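The authors deposited raw counts per gene, made with featureCounts on mm10 per the submitters' processing notes (aligner and annotation: not given in the sources used here). GENCODE M21 gave symbols to 54349 of its 55401 IDs when versions were kept. A deposited FPKM table was not used. In nested gene pairs with at least 1000 counts for the inner gene, the outer gene held the inner gene's reads on either strand (877 of 877 pairs on the same strand, 1300 of 1300 on opposite strands), so genes that overlap a gene with more counts are uncertain.

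The counts were analysed with edgeR 4.0.16 in R 4.3.3 (TMM scaling, filterByExpr, quasi-likelihood test, Benjamini-Hochberg adjustment over all genes tested, threshold 0.05). All 24 libraries in 4 groups entered 1 fit with 20 residual degrees of freedom, which left 23738 genes. List means are log2 CPM with a prior count of 2, and log2 fold changes without another name are SNI Mef2c over Sham Gfp. Named genes were the 15 largest rises, 15 largest falls and 5 smallest p-values among genes with a mean of at least 1 CPM, plus up to 6 members of each of 49 gene lists. A count of 0 was set to a floor of 3 counts over the group, and intervals (95%) and floors cover counting error only. Alternatives were another scaling, other filters, a replicate block, a covariate for cortical markers, the 12 libraries alone, DESeq2 1.42.0, limma 3.58.1 with voom, and each of the 12 libraries left out. The members and lists were chosen with earlier results of these data known, and some genes belong to several lists. Scripts were tested on simulated data.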

Additional observations from a re-analysis of the deposited data

Results flagged for a closer look

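In groups of 6 libraries, a library was singled out where its gap to the nearest other exceeded, as a share of the group's range, Dixon's 95% critical value, which chance gives in about 1 in 20 groups. The 422 groups tested came from the same 12 libraries and are not independent. In them a library was singled out 43 times, and in 29 of these it was SNI Mef2c replicate 1. That library was the lowest of its group in the list means of direct pathway neurons (4.53 log2 CPM), indirect pathway neurons (5.75), medium spiny neurons (7.47), opioid peptides and receptors (4.40) and GABA receptors and synthesis (7.30). Its list means were high for interferon regulatory factors and STATs (3.94), homeostatic astrocytes (7.83) and endothelium (4.74).

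Among neuronal genes SNI Mef2c replicate 1 was lowest for Drd1 (61.8 CPM), Drd2 (54.5 CPM), Ppp1r1b (316 CPM), Pdyn (16.5 CPM), Penk (225 CPM) and Nrn1l (0.80 CPM). It was highest for Kcnk15 (6.84 CPM), Rprm (62.7 CPM), Baiap2l2 (13.7 CPM), Cacna2d1 (326 CPM) and the clock gene Nr1d1 (221 CPM). Among immune genes it was highest for Samd9l (12.0 CPM), Ciita (9.84 CPM), Csf1r (111 CPM), Cx3cr1 (134 CPM) and Mrc1 (5.504 CPM). Antibody genes were highest there too, with Igkc at 1.57 CPM, Jchain at 1.37 CPM, Ighg2c at 0.27 CPM, Ighg3 at 0.17 CPM and Igkv10-96 at 0.0667 CPM.

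SNI Mef2c replicate 4 was highest for Wnk4 (19.3 CPM), Kirrel2 (8.48 CPM), Mx2 (4.02 CPM) and Ifnar2 (17.6 CPM), and replicate 3 for Top2a (4.38 CPM). A single count set replicate 6 apart for Cxcl9 and Ifng (0.0407 CPM each) and replicate 2 for Cd3g (0.0301 CPM). In Sham Gfp, replicate 1 was highest for Igkv6-13 (70.8 CPM), Igkj2 (9.60 CPM) and Cacna2d1 (210 CPM). Replicate 2 was highest for Il1a (4.79 CPM) and Ifng (1.28 CPM), and replicate 3 was lowest for Cxcl13 (4.90 CPM).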

How the results depend on the processing

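The rise of Mef2c kept its direction and passed in every alternative run, with log2 differences of 1.77 with library size alone, 1.83 with median-of-ratios scaling and 1.73 to 1.90 with 1 library left out. Of 140 named genes that passed, 36 lost the call in at least 1 of 21 settings and 104 lost it in none. None of those 140 changed direction. A setting that did not test a gene counted as no loss. This held for Ifng, whose level was too low for the filter of at least 1 CPM in 6 libraries. The number of genes that were higher moved most. It was 270 with library size alone, 471 without the filter on low counts, 335 with the 12 compared libraries alone, 1344 with cortical markers as a covariate and 2196 with limma-voom, and 359 to 1325 with 1 library left out (359 without Sham Gfp replicate 6, 1325 without SNI Mef2c replicate 1). All calls together numbered 5077 with limma-voom, and 2216 to 3674 with 1 library left out. Genes that were lower numbered 1700 to 2349 with 1 library left out. The share of lower genes among calls was 84.63% with the 12 libraries alone, 82.03% without the filter and 56.75% with limma-voom.

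Libraries with the same replicate number did not deviate together: correlations of their deviations over 12730 genes ran from -0.08 to 0.15, and 0 of 6 numbers matched best with their own. By this measure the numbers showed no pairing of libraries, though a weak shared factor per number would not be seen by it. With the replicate number as a block 2480 genes passed, 585 higher and 1895 lower, and the paired exact permutation test of Mef2c gave p = 0.0312, the smallest p that test allows. Named genes that did not pass with the block were Kcnk15, Nrn1l, Rprm, Baiap2l2, Cited4, Ccno, Igkv5-48, Ppp3r1, Kcna1, Scn2b, Grin2b, Grik5, Grin2c and Klf9.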
